A study of Homo sapiens with 2 samples.

Results

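The genes described here are 9 protein-coding genes of 22q11.21 that lie on the centromeric side of THAP7, the gene whose antisense RNA was silenced: LZTR1, CRKL, SNAP29, PI4KA, KLHL22, RANBP1, TRMT2A, UFD1 and HIRA. They were taken by name from the tables of 13017 genes by matching each gene identifier without its version to a symbol, and all 9 were listed. The cells were the human breast cancer line that the labels call 468. Their RNA was sequenced 48 h after transfection with a silencer mixture against THAP7-AS1 or with a negative control (si-NC). The genotype label separates the groups, while the treatment label gives the silencer in either case. Each group was 1 library, so no value below has a replicate check, no test of the groups was possible, and every comparison is between these 2 libraries.

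The band 22q11.21 is best known as the region lost in the 22q11.2 deletion syndrome, in which a run of neighbouring genes is missing from 1 copy of the chromosome. Its genes serve many functions and are grouped here by position. An antisense RNA is read from the strand opposite a gene and can act on the gene it overlaps, on neighbours on the same chromosome, or elsewhere, and the genes nearest to the silenced locus are therefore those for which a local difference would be looked for first. In GENCODE release 29, on the build GRCh38, THAP7-AS1 overlaps the start of THAP7 by 311 bases on the opposite strand. LZTR1 ends 65 bases from the end of THAP7, the genes facing each other tail to tail. CRKL follows at a gap of 45.4 kb, SNAP29 at 108 kb, PI4KA at 139.7 kb, KLHL22 at 503 kb, RANBP1 at 872 kb, TRMT2A at 882 kb, UFD1 at 1519.9 kb and HIRA at 1551.7 kb.

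The promoters at the silenced locus are shown because they mark where the nearest transcripts begin. Each window runs from 250 bases before to 50 bases after the start of a gene, from RefSeq on GRCh38.p14, which held 6 of the 9 genes (LZTR1, CRKL, SNAP29, PI4KA, KLHL22 and HIRA) and THAP7. SNAP29 and PI4KA start 196 bases apart and point away from each other, so their windows share 295 bases and the SNAP29 sequence shows both. Capitals mark any match, on either strand, to 6 short motifs: the GC box GGGCGG, the CCAAT box CCAAT, the E-box CACGTG, the TATA box TATAAA, the CRE core TGACGT and the ETS site CCGGAAG. Matches may overlap.
THAP7 promoter, chr22:21002069-21002368, minus strand: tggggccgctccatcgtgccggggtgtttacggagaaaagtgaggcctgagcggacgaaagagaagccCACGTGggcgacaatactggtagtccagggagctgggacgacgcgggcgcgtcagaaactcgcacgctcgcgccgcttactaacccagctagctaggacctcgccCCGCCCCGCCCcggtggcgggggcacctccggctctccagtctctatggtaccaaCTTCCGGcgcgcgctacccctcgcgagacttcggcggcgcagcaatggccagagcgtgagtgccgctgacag
LZTR1 promoter, chr22:20982047-20982346, plus strand: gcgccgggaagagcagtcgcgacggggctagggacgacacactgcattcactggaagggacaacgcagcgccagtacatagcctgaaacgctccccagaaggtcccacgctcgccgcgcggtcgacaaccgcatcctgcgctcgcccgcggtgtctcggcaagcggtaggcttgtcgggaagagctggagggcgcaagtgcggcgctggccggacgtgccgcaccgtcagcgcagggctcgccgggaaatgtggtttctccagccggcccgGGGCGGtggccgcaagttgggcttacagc
CRKL promoter, chr22:20917157-20917456, plus strand: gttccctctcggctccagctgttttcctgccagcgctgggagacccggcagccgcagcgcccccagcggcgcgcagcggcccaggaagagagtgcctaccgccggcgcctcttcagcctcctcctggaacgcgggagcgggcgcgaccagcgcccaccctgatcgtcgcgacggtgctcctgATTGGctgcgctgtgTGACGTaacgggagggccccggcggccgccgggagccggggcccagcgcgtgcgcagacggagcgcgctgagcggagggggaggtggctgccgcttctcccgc
SNAP29 promoter, chr22:20858757-20859056, plus strand: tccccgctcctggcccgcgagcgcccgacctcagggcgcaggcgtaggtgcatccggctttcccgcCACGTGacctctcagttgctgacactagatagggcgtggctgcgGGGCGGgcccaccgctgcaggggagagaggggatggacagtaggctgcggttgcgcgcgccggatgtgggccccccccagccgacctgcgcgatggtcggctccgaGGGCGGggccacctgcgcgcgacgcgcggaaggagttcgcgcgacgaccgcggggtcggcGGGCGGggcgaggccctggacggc

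All 7 windows were rich in G and C, at 67.0% to 79.7% against a median of 58.7% over 35116 RefSeq promoters of the same length. The GC box, found in 45.0% of those promoters, was matched once in LZTR1, 2 times in THAP7, 3 times in the window of SNAP29 and PI4KA, 4 times in HIRA and 5 times in KLHL22. CRKL held no GC box and was the only one of the 7 with a CCAAT box (34.6% of promoters) and a CRE core (7.98%). The E-box, at 7.26% of promoters, was matched in THAP7, in KLHL22 and in the stretch that SNAP29 and PI4KA share. The ETS site (10.3%) was matched in THAP7 and HIRA, and the TATA box (11.5%) in none of the 7. These are matches of letters and no measure of binding.

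THAP7-AS1 itself was not analysed here, and no level of it could be used to check the silencing. The gene it overlaps, THAP7 (ENSG00000184436.11_2), which encodes a zinc finger protein of the THAP family, was at 8.38 FPKM after knockdown and 2.71 FPKM in the control library. FPKM is a level in sequenced fragments, scaled to gene length and library size. Ratios are given as log2((knockdown FPKM + 1)/(control FPKM + 1)), which understates the difference of low genes, and that of THAP7 was 1.34. The strandedness of the libraries is not given in the sources used here, so reads of THAP7 and of THAP7-AS1 over their shared bases cannot be told apart. At the depth estimated below the THAP7 values would rest on about 113 and 36 fragments.

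None of the 9 neighbours shared a difference of that size. In the knockdown library 5 of the 9 were higher and 4 lower. Their median log2 ratio was 0.04, beside 0.02 over the 10925 genes whose mean FPKM was 1 or more. All 9 had a mean above that limit. With 1 library a group, a gene was called when it was at least 2-fold apart on the FPKM + 1 scale. This took 0 of the 9, where 1.27% of all genes were called, 0.604% as higher and 0.668% as lower. At 1.5-fold it also took 0 of 9, against 5.45% of all genes. So small a share of all genes is called that 0 of 9 lies near the background. The median distance from 0, whatever the direction, was 0.15 for the 9 genes and 0.14 for all genes, and 4 of the 9 lay within 0.1 of 0 against 37.4% of all genes.

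Depth had to be estimated, since FPKM carries no counts. Among genes annotated with only 1 transcript, those whose product of FPKM and length lay from 80 to 100 were taken. The median product was 89.7 (knockdown, 14 genes) and 91.4 (control, 10 genes). If each is the worth of a single fragment, the libraries held about 11100000 and 10900000 fragments. The interval searched was picked with the values in view and itself bounds the median. The depths, and the fragment numbers and counting errors that rest on them, are therefore rough and unchecked. Counting errors given below are for the log2 ratio of FPKM without the added 1, from that depth and the principal annotated transcript, and cover counting only. A second yardstick was the spread of the ratio over the 500 genes nearest in mean level, as an SD from the median absolute deviation. It holds differences between the cultures as well as noise. CRKL and TRMT2A were the 2 of the 9 genes whose ratios exceeded the spread of genes of like level, as did those of 33.9% of all genes against their own like-level spread. The same 2 exceeded 2 counting errors, as did 33.8% of the 10861 genes for which this could be computed. Both counts of 2 of 9 lie near or below the background. Bulk RNA cannot tell less RNA per cell from fewer cells that carry it.

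**Figure D1:**
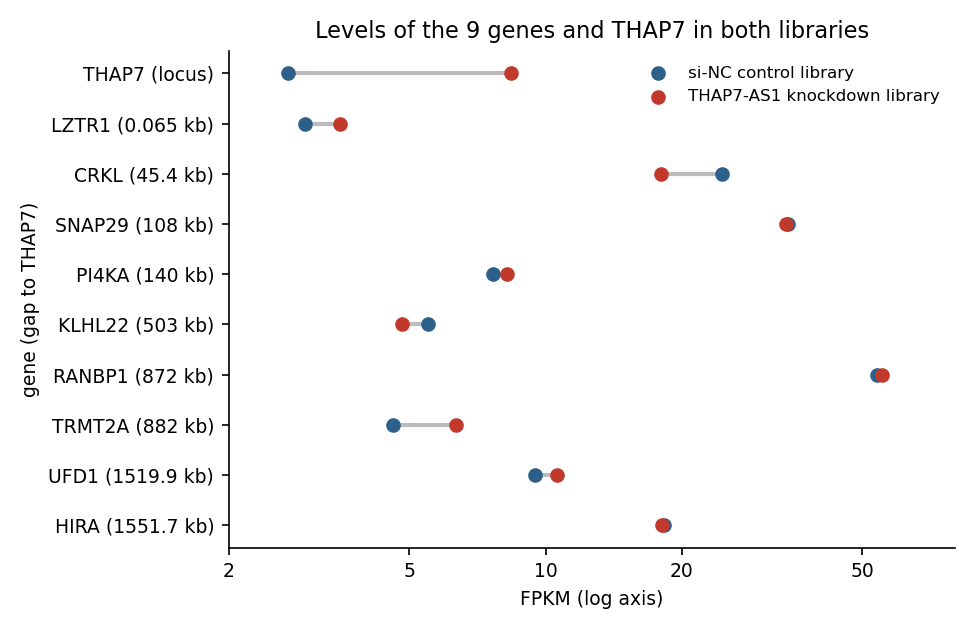
FPKM (log axis) of THAP7 and the 9 genes in the knockdown library (red) and the control library (blue), 1 library per group, ordered by the gap to THAP7 in GENCODE release 29. THAP7 is at 8.38 against 2.71 FPKM, while the points of SNAP29, RANBP1 and HIRA almost coincide.

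**Figure D2:**
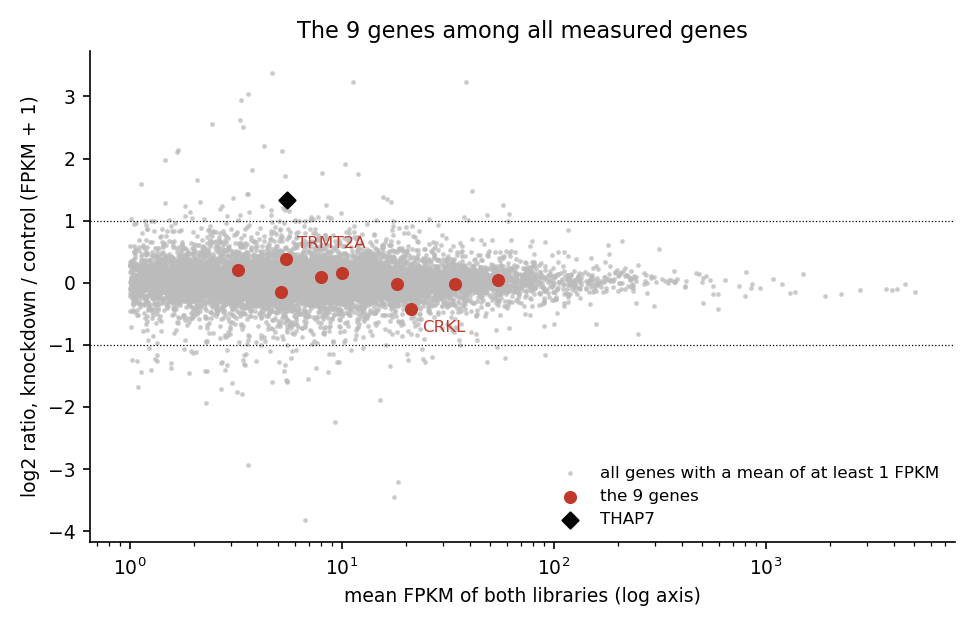
Log2 ratio of knockdown to control on the FPKM + 1 scale against mean FPKM (log axis) for 10925 genes (grey), the 9 genes (red) and THAP7 (black diamond); dotted lines mark a 2-fold difference. The 9 genes lie inside the dotted lines, with CRKL lowest at -0.42 and TRMT2A highest at 0.39.

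CRKL (ENSG00000099942.12_2) encodes an adaptor protein that links tyrosine-phosphorylated receptors and scaffolds, through its SH2 and SH3 domains, to activators of small GTPases. It had the lowest ratio of the 9, at 18.03 FPKM after knockdown and 24.49 FPKM in the control, giving a log2 ratio of -0.42, or 1.34-fold lower. The spread of genes of like level was 0.19, and 10.4% of those 500 genes lay farther from 0. With about 1070 and 1427 fragments at the estimated depth, the counting error would be 0.058, and the spread between cultures is not known. Over all 10925 genes 11.4%, or 1243 genes, lay farther from 0 than CRKL.

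The partners of CRKL were not lower as a group. Of 21 other measured genes of CRK adaptor signalling, 13 were higher and 8 lower, with a median log2 ratio of 0.06, and 0 were at least 2-fold apart. The closest relative, CRK, was lower by a like amount, at 10.4 FPKM against 14.1, a log2 ratio of -0.41. The GTPase gene RAC1 was at 96.8 against 60.6 FPKM and the docking protein gene GAB2 at 18.03 against 14.51, both higher. The scaffold gene BCAR1 and the exchange factor gene RAPGEF1, direct partners of the CRK proteins, had log2 ratios of 0.08 and -0.04. In each list of partners up to 4 genes with the largest ratios are named; direct partners named beside them were chosen for their role after their values had been seen.

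LZTR1 and KLHL22 encode substrate adaptors of the ubiquitin ligase built on cullin 3. LZTR1 brings RAS-family GTPases, RIT1 and MRAS among them, to the ligase, and KLHL22 has been tied to mitosis and to amino acid sensing through DEPDC5. LZTR1 (ENSG00000099949.18_3), the nearest neighbour, was the least abundant of the 9, at 3.52 FPKM after knockdown and 2.94 in the control library. Its log2 ratio of 0.20 was within the spread of genes of like level, 0.22, and 40.0% of those genes lay farther from 0. The counting error would be 0.16 at about 180 and 147 fragments. LZTR1 thus lay in the direction of THAP7, but 37.4% of all genes lay farther from 0.

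KLHL22 (ENSG00000099910.16_3) lay in the other direction, at 4.82 against 5.49 FPKM, a log2 ratio of -0.16, with 54.0% of genes of like level farther from 0. ENSG00000277971, a gene model without a symbol that shares 178 exonic bases with KLHL22 and 466 with SCARF2 on the same strand, was at 6.54 FPKM after knockdown and 0.322 FPKM in the control library. The bases shared with KLHL22 are 3.83% of the exonic length of KLHL22 and 27.6% of that of ENSG00000277971. Those shared with SCARF2 are 72.4% of the exonic length of ENSG00000277971, which is 644 bases. Between them KLHL22 and SCARF2 cover all of its exons, so ENSG00000277971 has no exonic bases of its own in GENCODE. SCARF2, listed at 0.293 and 0.473 FPKM, was below the limit on mean level. Reads over shared exons are divided between models by estimate, and what part this has in either value was not tested. ENSG00000277971 was singled out after its value had been seen.

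Of 28 other measured genes of cullin 3 ligases and their RAS-family and mitotic substrates, 14 were higher and 14 lower, with a median of -0.01 and 0 at least 2-fold apart. This median was -0.16 where the mean had to reach 5 FPKM and 0.02 with no limit on the mean. CUL3, the cullin itself, was at 7.18 against 9.82 FPKM, and its ring finger partner RBX1 had a log2 ratio of 0.05. Among the adaptors KLHL12 was at 6.68 against 9.02 FPKM and KLHL21 at 2.73 against 1.65 FPKM. MRAS, a substrate of LZTR1, had the largest ratio of the list, at 5.65 against 2.61 FPKM, a log2 ratio of 0.88. With 0.1 added in place of 1, MRAS was 1 of 2 genes of all the partner lists that were at least 2-fold apart. RIT1 was at 0.17, while NRAS and HRAS were at -0.32 and -0.24. Of the KLHL22 partners, DEPDC5 was at -0.06 and PLK1 at 0.19. The GTPase genes therefore lay on both sides of 0.

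PI4KA and SNAP29, which start from the shared promoter region printed above, both differed little between the libraries. PI4KA makes phosphatidylinositol 4-phosphate at the plasma membrane, the precursor of the phosphoinositides used in signalling. PI4KA (ENSG00000241973.10_3) was at 8.23 FPKM after knockdown and 7.67 in the control, a log2 ratio of 0.09, with 67.0% of genes of like level farther from 0. SNAP29 is a SNARE protein that joins autophagosomes to lysosomes. SNAP29 (ENSG00000099940.11_3) was at 33.9 against 34.3 FPKM, a log2 ratio of -0.02, and 91.6% of genes of like level lay farther from 0. The 2 genes share 225 exonic bases on opposite strands in GENCODE, 4.54% of SNAP29 and 1.97% of PI4KA, so without strand a small part of their reads cannot be assigned with certainty.

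Of 14 other genes of phosphatidylinositol 4-kinases and their partners, 6 were higher and 8 lower, with a median of -0.02. The largest ratios were those of the lipid transfer genes PITPNB, at 14.6 against 21.6 FPKM, and OSBP, at 32.7 against 25.1 FPKM, the PI4KA scaffold TTC7A, at 5.66 against 7.39 FPKM, and the kinase gene PI4K2A, at 5.68 against 7.03 FPKM. EFR3A, which anchors PI4KA at the membrane, had a log2 ratio of -0.19, and HYCC1, another subunit of that complex, 0.08. Of 23 other genes of SNAP29-dependent and related membrane fusion, 9 were higher and 14 lower, with a median of -0.02. Among these SNARE and fusion genes YKT6 was at 51.0 against 30.9 FPKM and NAPG at 12.96 against 9.83 FPKM, whereas VTI1B was at 12.2 against 22.4 FPKM and VAMP7 at 31.03 against 41.45 FPKM. STX17 and VAMP8, the SNAREs that pair with SNAP29 on autophagosomes and lysosomes, had log2 ratios of -0.15 and 0.20. In both lists 0 genes were at least 2-fold apart.

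RANBP1 and TRMT2A lie side by side and start from opposite strands, with 393 exonic bases in common in GENCODE, which are 8.50% of RANBP1 and 9.92% of TRMT2A. RANBP1 binds RAN in its GTP form and helps to release it from transport receptors after export from the nucleus. RANBP1 (ENSG00000099901.16_3), the most abundant of the 9, was at 55.4 FPKM after knockdown and 53.9 in the control, a log2 ratio of 0.04. TRMT2A methylates uracil in tRNA. TRMT2A (ENSG00000099899.14_4) was at 6.34 against 4.60 FPKM, a log2 ratio of 0.39, or 1.31-fold higher, the highest of the 9. The spread of genes of like level was 0.24, and 17.0% of them lay farther from 0. The counting error would be 0.15 at about 209 and 149 fragments. The neighbours thus differed in ratio although they adjoin, and the difference between their ratios has no replicate check. Without strand, reads over their shared bases cannot be assigned with certainty. What part reads of the more abundant RANBP1 have in the TRMT2A values was not tested.

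All 30 genes of the list for the RAN transport cycle were measured. Without RANBP1, 11 were higher and 18 lower, with a median of -0.01 and 0 at least 2-fold apart. NUTF2, which carries RAN into the nucleus, was at 13.8 against 20.6 FPKM, and the exportin gene XPO1 at 9.45 against 13.5 FPKM. The importin genes KPNA1 and IPO11 were at 11.9 against 14.6 FPKM and 4.32 against 3.30 FPKM. RAN itself had a log2 ratio of -0.16, its GTPase activator RANGAP1 -0.13 and its exchange factor RCC1 0.06. Of 27 other tRNA methyltransferase genes, 13 were higher and 14 lower, with a median of -0.03. TRMT1 was at 10.4 against 6.42 FPKM. TRMO, the other gene at least 2-fold apart with 0.1 added, was at 1.27 against 3.35 FPKM, TYW3 at 6.42 against 9.73 FPKM and TRMT1L at 3.59 against 5.46 FPKM. TRMT2B, the mitochondrial relative of TRMT2A, had a log2 ratio of 0.18.

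UFD1 and HIRA, the farthest of the 9, differed by less than the spread of genes of like level. UFD1 is a cofactor with which the ATPase VCP extracts ubiquitinated proteins from membranes and complexes. UFD1 (ENSG00000070010.18_4) was at 10.62 FPKM after knockdown and 9.46 in the control, a log2 ratio of 0.15, with 45.0% of genes of like level farther from 0. HIRA is the chaperone that deposits histone H3.3 outside of DNA replication. HIRA (ENSG00000100084.14_3) was at 18.05 against 18.23 FPKM, a log2 ratio of -0.01, the smallest of the 9, and 93.8% of genes of like level lay farther from 0. HIRA shares 2857 exonic bases, 66.5% of its own, with C22orf39 on the same strand, which was at 2.66 against 2.88 FPKM, so the split of reads between them is uncertain.

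Of 24 other genes around VCP and UFD1, 10 were higher and 14 lower, with a median of -0.02. NPLOC4, the constant partner of UFD1, had a log2 ratio of 0.05 and VCP 0.07. Among the largest ratios were those of the ubiquitin-binding protein gene UBXN1, at 78.0 against 60.7 FPKM, the deubiquitinase gene YOD1, at 5.15 against 7.32 FPKM, and the ligase gene SYVN1, at 7.47 against 9.55 FPKM. Of 15 other genes of a list of histone chaperones and their partners, with HIRA, the H3.3 genes and chaperones of other H3 forms among them, 9 were higher and 6 lower, with a median of 0.11, or 0.058 with no limit on the mean. UBN1, also of this list, was at 0.097 FPKM after knockdown and 0.137 FPKM in the control, below the limit on mean level. CABIN1 and UBN2, which stand in the HIRA complex, had log2 ratios of 0.29 and 0.004. The largest were SETD2, at 9.65 against 7.10 FPKM, and ATRX, at 10.3 against 7.78 FPKM, both higher, and the H3.3 gene H3-3B, at 21.5 against 30.5 FPKM, and the centromeric histone chaperone gene HJURP, at 27.05 against 35.61 FPKM, both lower. The other H3.3 gene, H3-3A, had a log2 ratio of 0.11. In both lists 0 genes were at least 2-fold apart.

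**Figure D3:**
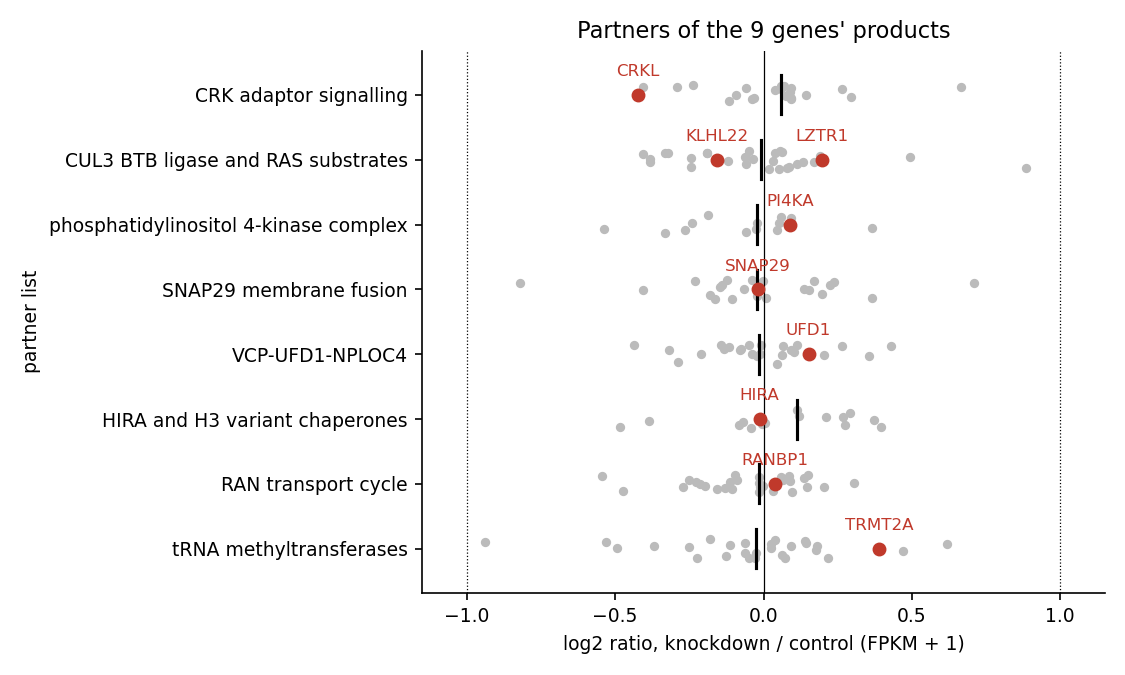
Log2 ratio of knockdown to control on the FPKM + 1 scale for the measured genes of 8 lists of partners (grey, spread vertically for visibility), with the median of each list without the 9 genes (black bar) and the 9 genes in red; dotted lines mark a 2-fold difference. All points lie inside the dotted lines, and the medians run from -0.03 to 0.11.

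The order of the 9 genes by level was almost the same in both libraries. Values scaled to length ran from 3.52 FPKM for LZTR1 to 55.4 FPKM for RANBP1 in the knockdown library, a span of 15.7-fold, and from 2.94 to 53.9 FPKM, or 18.3-fold, in the control library. RANBP1, SNAP29, UFD1, PI4KA and LZTR1 held ranks 1, 2, 5, 6 and 9 in both. CRKL stood above HIRA in the control library, at 24.49 against 18.23 FPKM, but level with it in the knockdown library, at 18.03 against 18.05 FPKM. KLHL22 stood above TRMT2A in the control library, at 5.49 against 4.60 FPKM, and below it in the knockdown library, at 4.82 against 6.34 FPKM. In sum the 9 genes came to 159 and 161 FPKM. With 2 libraries a gene's pattern is a single ratio, and no gene is named for likeness of pattern.

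The ratios were also set out by distance from THAP7. Of the 6 measured genes within 0.5 Mb, THAP7 left out, 4 were higher and 2 lower, with a median of 0.02, and they include LZTR1, CRKL, SNAP29 and PI4KA. The other 2, MED15 and HIC2, had log2 ratios of 0.03 and 0.005. Of these 6 genes only HIC2 lay on the telomeric side, the side of the THAP7 start that THAP7-AS1 overlaps. It was the nearest measured gene there, at a gap of 415 kb, with 1.58 FPKM after knockdown and 1.57 FPKM in the control. The nearest range therefore describes mostly the centromeric side. Between 0.5 and 1 Mb 13 of 19 genes were higher, with a median of 0.08, and between 1 and 2 Mb 7 of 11, with a median of 0.02. Beyond 2 Mb on chromosome 22, 141 of 233 genes were higher, with a median of 0.05. The median distance from 0 was 0.058, 0.10, 0.15 and 0.13 over these 4 ranges. The lowest of these was that of the nearest 6 genes, although they include CRKL, whose ratio of -0.42 was the largest in size of the 9, and leave out THAP7 at 1.34. On the whole chromosome 61.5% of 270 genes were higher, and among all genes 53.1%.

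Within 2 Mb, besides THAP7, 1 of 36 measured genes was at least 2-fold apart, ENSG00000277971, or 2.78% against 1.27% of all genes and 0.858% of those farther away on chromosome 22. A single gene sets this share. Another model without a symbol, ENSG00000283809, lay at 2051.4 kb. It was at 6.69 FPKM in the knockdown library and listed at 0 in the control library, and it shares 650 exonic bases with DGCR6 on the same strand, which was at 4.67 against 7.18 FPKM. It too was singled out after its value had been seen. Both models overlap genes that are listed separately, and neither has a symbol. ENSG00000277971 shares all of its exonic bases with KLHL22 and SCARF2, and how far its value can be told apart from theirs was not tested. ENSG00000283809 shares 38.9% of its exonic length with DGCR6.

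A list of 64 genes along the band, made by hand, gave the wider picture. Of these, 49 were listed, 44 passed the limit on mean level and 5 fell below it; the other 15 were not analysed here. The 44 had a median of 0.04, with 27 higher and 17 lower, and THAP7 was the 1 gene at least 2-fold apart, 2.27% of the 44 against 1.27% of all genes. With 5 added in place of 1 THAP7 was at 0.80 and the count was 0. The list does not hold the models ENSG00000277971 and ENSG00000283809, so both counts leave them out. With 1 added their log2 ratios were 2.51 and 2.94. Without THAP7 and the 9 genes, the lowest of the other 34 was DGCR6, at -0.53. Of the remaining genes close to the 9, the zinc finger gene ZNF74 was at 2.85 against 1.87 FPKM. The microprocessor subunit gene DGCR8, which adjoins TRMT2A, was at 6.27 against 6.33 FPKM. The mitochondrial ribosomal protein gene MRPL40, at a gap of 1563.0 kb where that of HIRA is 1551.7 kb, was at 36.1 against 27.5 FPKM. The replication gene CDC45, which adjoins UFD1, was at 18.8 against 24.1 FPKM.

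**Figure D4:**
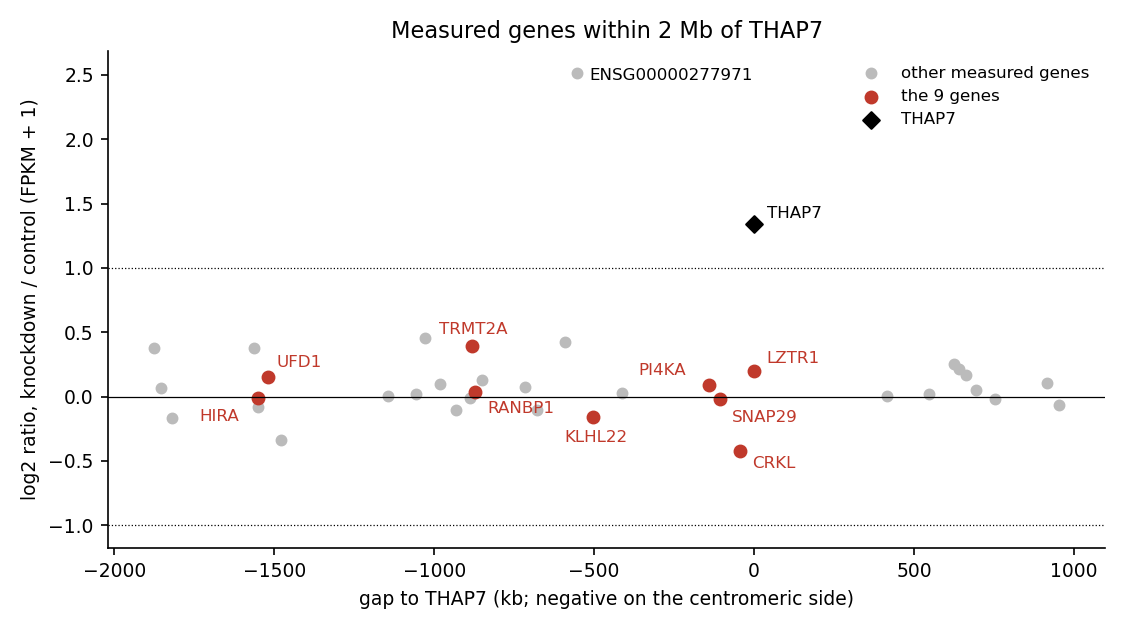
Log2 ratio of knockdown to control on the FPKM + 1 scale for the measured genes within 2 Mb of THAP7, against the gap to THAP7 in kb, negative on the centromeric side; the 9 genes are red, other genes grey, THAP7 a black diamond, and dotted lines mark a 2-fold difference. THAP7 at 1.34 and ENSG00000277971 at 2.51 lie above the upper line, and the other points lie between the lines.

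The cell type was checked against markers. All 9 markers of breast epithelium were measured, 7 of them higher and 2 lower after knockdown. In the knockdown and control libraries KRT18 was at 200.7 and 166.4 FPKM, KRT5 at 63.97 and 55.58, CDH1 at 12.43 and 17.06 and EGFR at 258.4 and 336.3, the last 2 being the lower ones, with log2 ratios of -0.43 and -0.38. Of 13 markers of immune, stromal and endothelial cells, 4 were listed, and their values summed to 4.17 and 4.15 FPKM, most of it CD68 at 3.30 and 3.25 FPKM.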

How the data were processed

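RNA of 2 libraries, 1 per group, was measured. The authors deposited a table of FPKM per gene for each, per the file headers. Tools named in the submitters' processing notes are HISAT2 2.0.5, StringTie and cutadapt, with the build hg19. Parameters, annotation and strandedness were not given in the sources used here. Both tables list the same 13017 genes. A symbol was found for 12746 of them; GENCODE release 29 (GRCh38), matched by identifier for 12933, gave distances, exons and transcript lengths, and the files hold no coordinates. Ratios used FPKM + 1 and genes whose mean reached 1 FPKM; called means at least 2-fold apart. With 1 library per group no test was made. The genes named are the 9 genes, THAP7, other genes of the band and up to 4 genes with the largest ratios of each of 8 partner lists, with exceptions stated; the values of some genes under this rule are not reported here. The genes and lists were chosen with earlier results of these data known. Alternatives changed the pseudocount, scaling, filter, fold, distance or exon sharing. The scripts ran under Python 3.11.15 with pandas 2.3.3, numpy 2.4.6 and matplotlib 3.10.9, and were tested on simulated data.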

Additional observations from a re-analysis of the deposited data

How the results depend on the processing

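Of 54 values of the 9 genes under another pseudocount or scaling, all 54 moved by less than the spread of genes of like level, and 1 changed sign: RANBP1 went from 0.038 to -0.011 under quantile normalization. CRKL ran from -0.44 to -0.36 and TRMT2A from 0.24 to 0.46, and no setting, 1.5-fold and 3-fold among them, put 1 of the 9 genes past the fold used. THAP7 was at 1.60 with a pseudocount of 0.1, 1.63 with none and 0.80 with a pseudocount of 5, at which the band list had 0 genes at least 2-fold apart in place of 1. Within 1 Mb and within 2 Mb that count went from 1 to 0 where the mean had to reach 5 FPKM and without genes sharing exons, both of which remove ENSG00000277971, and to 2 with a window of 3 Mb. The partner lists had 2 such genes in place of 0 with a pseudocount of 0.1. The median of the cullin 3 list was -0.16 where the mean had to reach 5 FPKM, and that of the HIRA list 0.058 with no filter; the cause was not tested. Of 92 medians of lists and windows 90 moved by less than 0.05, and 2 changed sign, the cullin 3 list to 0.02 with no filter and the genes within 0.5 Mb to -0.006 under quantile normalization. No paired analysis was possible because each group has 1 library, and no setting measures the spread between cultures.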
